A study of Mus musculus with 18 samples.

Results

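The respiratory chain genes described here encode subunits of complexes I to IV of the mitochondrial inner membrane. They were taken from the table of raw counts by gene symbol, as Nduf genes of the a, b, c, s and v series, Uqcr genes, Sdha to Sdhd, Cox4i1, Cox5, Cox6, Cox7 and Cox8a genes, and the mitochondrial mt-Nd, mt-Co, mt-Atp and mt-Cytb genes. Pseudogenes and numbered gene models were left out, and a gene had to hold at least 10 raw counts in at least 9 libraries. This gave 66 of the 45706 genes in the table, of which 59 are encoded in the nucleus and 7 in the mitochondrial genome. By their names, the nuclear genes comprise 36 of complex I, 4 of complex II, 8 of complex III and 11 of complex IV. Ndufa4, later assigned to complex IV, is therefore counted with complex I throughout. They were chosen by these raw counts over all libraries together, without regard to stimulus or genotype.

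The respiratory chain passes electrons from NADH and succinate to oxygen and pumps protons, and the proton gradient drives ATP synthase. Complexes I, III and IV are built from subunits of both genomes, whereas all subunits of complex II, succinate dehydrogenase, are nuclear. Mitochondrial genes are transcribed as long precursors from both strands of a circular genome and then cut into single transcripts, so their levels depend on promoter use, on processing and on decay. Macrophages exposed to lipopolysaccharide are known to shift from respiration towards glycolysis.

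Libraries were made from poly(A) RNA of macrophages derived from C57BL/6 mouse bone marrow, grown in medium with 30% L929-cell conditioned medium and used on day 7. The labels also give an age of 12 days without saying whether it is that of the animals or of the cells. Wild-type (WT) cells were compared with cells labelled RelA-TA-KI, which by its name is a knock-in at Rela (RelA is an NF-kB subunit). Cells of each genotype stayed unstimulated or were given the TLR4 ligand lipopolysaccharide (LPS) at 100 ng/ml or the cytokine TNF at 10 ng/ml for 0.5, 1, 3 or 8 h. These are 9 conditions with 1 library per genotype, 18 libraries in all. No animals, clones or cultures are named, so a p-value here measures the spread between these libraries, and genotype cannot be told apart from culture.

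Library totals ranged from 4663650 to 6721917 counts, and each of the 66 genes passed the filter for testing among 11308 genes. The knock-in TNF 3 h library had the lowest total, the lowest share of mitochondrial members at 0.367% of its counts, the lowest share of mitochondrial ribosomal RNA at 0.0370% and the highest share of the numbered model Gm42418 at 3.36%. Some counts of calls and some values of mitochondrial genes are given with and without this library below, and others rest on it too. The median log2 fold change of the mitochondrial members at 3 h of TNF was -0.18 with it and 0.17 without. For genotype over the TNF times that median was -0.05 and 0.22, and for LPS minus TNF at 3 h 0.20 and -0.18. Macrophage markers summed to 9278 to 14013 CPM (counts scaled to the TMM-adjusted library total) in WT and 8905 to 15264 CPM in knock-in libraries. The 6 neutrophil markers summed to 143 to 299.6 CPM in WT and 68.8 to 208 CPM in knock-in libraries. The 5 stromal markers summed to 98.0 to 189 CPM in WT and 13.7 to 71.4 CPM in knock-in libraries. Nearly all of this came from Col1a1 (43.8 to 74.0 CPM in WT, 6.34 to 31.8 CPM in knock-in libraries) and Col1a2 (53.3 to 109 and 7.13 to 36.8 CPM). Col3a1, Dcn and Pdgfra held 6.14 CPM or less, and their ranges overlapped between genotypes. The sums of T and B cell, dendritic cell and erythroid markers stayed at or below 6.79 CPM in every library. Their part in the results below was not tested. Rela itself held 376 to 1327 counts per library, so gene counts show its transcript in both genotypes and give no check of the allele.

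Of 81 genes that matched by symbol, 15 fell under the count floor, 9 nuclear and 6 mitochondrial. Closest above the floor stood Cox7a1, the heart and muscle isoform of a complex IV subunit, with 10 counts or more in 11 libraries and 195 counts in all. Closest below it stood Cox7c with 149 counts and Cox6a2, another muscle isoform, with 98. The hypoxia-linked Ndufa4l2 had 3 counts in all 18 libraries and the testis isoform Cox6b2 had 15.

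Of the 13 protein-coding genes of the mitochondrial genome, mt-Co2, mt-Co3, mt-Atp6, mt-Atp8 and mt-Nd4l were listed at 0 in every library, and mt-Nd3 at 1 count. Cells that use mitochondria transcribe these genes, so a listed 0 here does not measure their level. In annotated mouse transcripts (GENCODE vM21), 100% of the 50-base windows of mt-Co2 were also found in the numbered model Gm28661 or a further model, as were 99.9% of those of mt-Co3, 99.5% of mt-Atp6, 98.8% of mt-Nd4l and 98.0% of mt-Nd3 in other models. For mt-Atp8 the share was 0%. Only annotated transcripts were searched, so a copy outside them would not show, for this gene or any other. The models that share most with mt-Co2, mt-Co3, mt-Atp6, mt-Nd4l, mt-Nd3, mt-Nd4 and mt-Co1 are 7 that lie side by side on chromosome 1 between 24611535 and 24616197 (mm10), and 5 of them also held 0 counts. Among the members, mt-Co1 shared 51.1% and mt-Nd4 62.2% of its windows with other models, mt-Nd2 8.19%, mt-Nd5 7.61%, and mt-Nd1, mt-Cytb and mt-Nd6 none. The sources used here do not say how reads with several matches were handled, and mt-Co1 and mt-Nd4 are therefore less certain than mt-Nd1. The following windows, read from the GENCODE transcripts on the plus strand, show a stretch of a gene listed at 0 that is also present in Gm28661, and a stretch of a counted gene that is not.
mt-Co2 (chrM:7013-7062, mm10): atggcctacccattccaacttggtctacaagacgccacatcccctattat
mt-Nd1 (chrM:2751-2800, mm10): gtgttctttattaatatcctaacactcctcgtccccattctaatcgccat

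Transcripts of both genomes held a smaller share of counts late after LPS. The 59 nuclear genes made up 0.444% of counts in unstimulated WT cells and 0.282% at 8 h of LPS, and 0.417% and 0.261% in knock-in cells. The 7 mitochondrial genes went from 0.695% to 0.423% in WT and from 0.615% to 0.368% in knock-in cells over the same interval. At 8 h of TNF the nuclear share was 0.392% in WT and 0.383% in knock-in cells, and the mitochondrial share 0.498% and 0.616%. In bulk RNA, fewer cells of a type and less RNA per cell cannot be told apart.

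**Figure D1:**
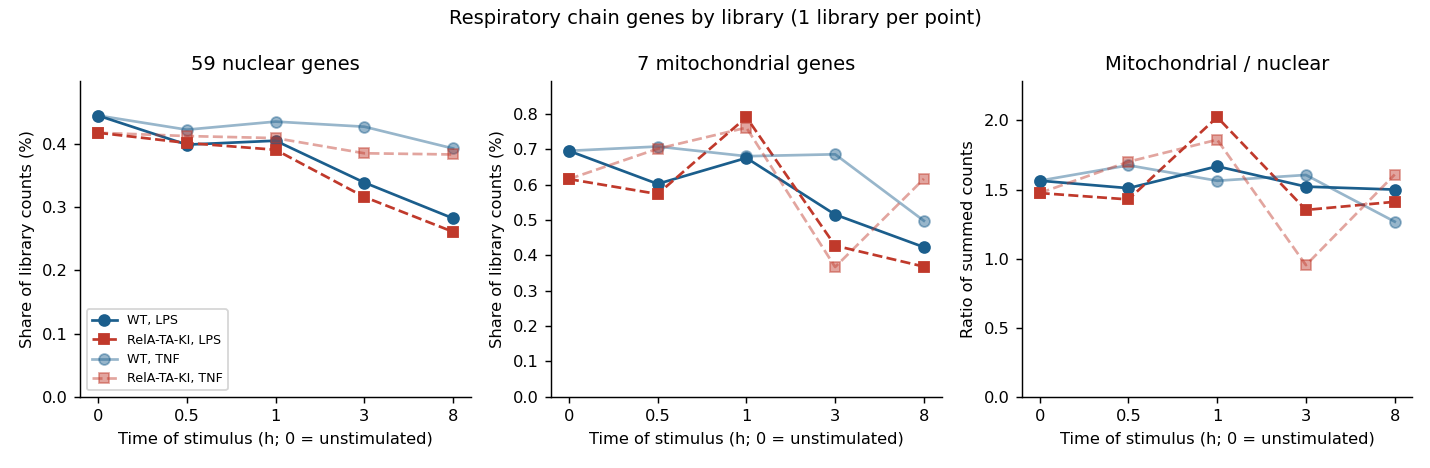
Share of library counts (%) held by the 59 nuclear genes (left) and the 7 mitochondrial genes (middle) and the ratio of their summed counts (right) against time of stimulus in h, 1 library per point. WT is blue and RelA-TA-KI red, LPS dark and TNF pale. The nuclear share ends at 0.282% and 0.261% after LPS, and the ratio is lowest in the knock-in TNF 3 h library (0.953) and highest in the knock-in library at 1 h of LPS (2.02).

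The direction of a change depends on what it is compared with. Fold changes below use TMM scaling, which sets the typical gene near 0, and scaling by library totals instead lowers the median of all tested genes by 0.95 on the log2 scale at 8 h of LPS, by 0.53 at 3 h and by 0.25 at 8 h of TNF. A member called higher after LPS therefore rose relative to the median gene, while its share of all counts did not rise. With library totals 56 nuclear members were called lower at 8 h of LPS and 0 higher, and their median log2 fold change was -0.75 against -0.99 for all genes tested. The 7 mitochondrial members then had 6 called lower, with a median of -0.81. Both medians thus fell less than that of all genes. The share of all genes called lower with library totals is not given here. Counts of lower calls with library totals, here and below, therefore do not set the chain apart from other genes.

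The ratio of mitochondrial to nuclear counts within a library does not use any scaling. It was 1.56 in unstimulated WT cells and 1.47 in unstimulated knock-in cells, and 1.41 in knock-in cells at 8 h of LPS. The WT library at 8 h of LPS held 20049 mitochondrial and 13367 nuclear counts. Over all 18 libraries it ran from 0.953 in the knock-in TNF 3 h library to 2.02 in the knock-in library at 1 h of LPS. The median change of nuclear minus that of mitochondrial members at 8 h of LPS was 0.11 ± 0.05 on the log2 scale (SD, n = 2 genotypes), and 0.24 without mt-Co1 and mt-Nd4. For TNF at 8 h it was 0.11 ± 0.33 (SD, n = 2), with opposite signs in WT (0.35) and knock-in (-0.12). At 1 h the values were -0.05 in WT and -0.47 in knock-in cells after LPS, and 0.00 and -0.34 after TNF, so the genotypes lay further apart than the mean lay from 0. At 3 h of TNF they were -0.08 and 0.62.

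Of the nuclear respiratory chain genes 26 rose relative to the median gene by 8 h of LPS, 9 of them among the 11 of complex IV, while with library totals 0 rose. With both genotypes fitted together by edgeR's quasi-likelihood test (Benjamini-Hochberg adjusted over all genes, 2 libraries per condition), 26 of 59 nuclear members were higher and 2 lower, or 47.5%, where 67.7% of all tested genes were called, 33.8% of them higher and 33.9% lower. The median log2 fold change was 0.21 for nuclear members and -0.04 for all genes. All 31 calls, mitochondrial ones included, had the same direction in both genotypes. At 0.5 and 1 h of LPS 0 members were called, against 0.92% and 6.84% of all genes (at 1 h 4.25% higher and 2.59% lower). For these times edgeR gave 2 and 0 members an unadjusted p under 0.05, and DESeq2 and limma-voom also called 0. At 3 h 11 nuclear members were higher and 0 lower, where 47.6% of all genes were called, 24.8% higher and 22.7% lower, among them 5 of 8 in complex III and 5 of 11 in complex IV. With library totals 0 nuclear members were higher and 45 lower at 3 h.

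**Figure D2:**
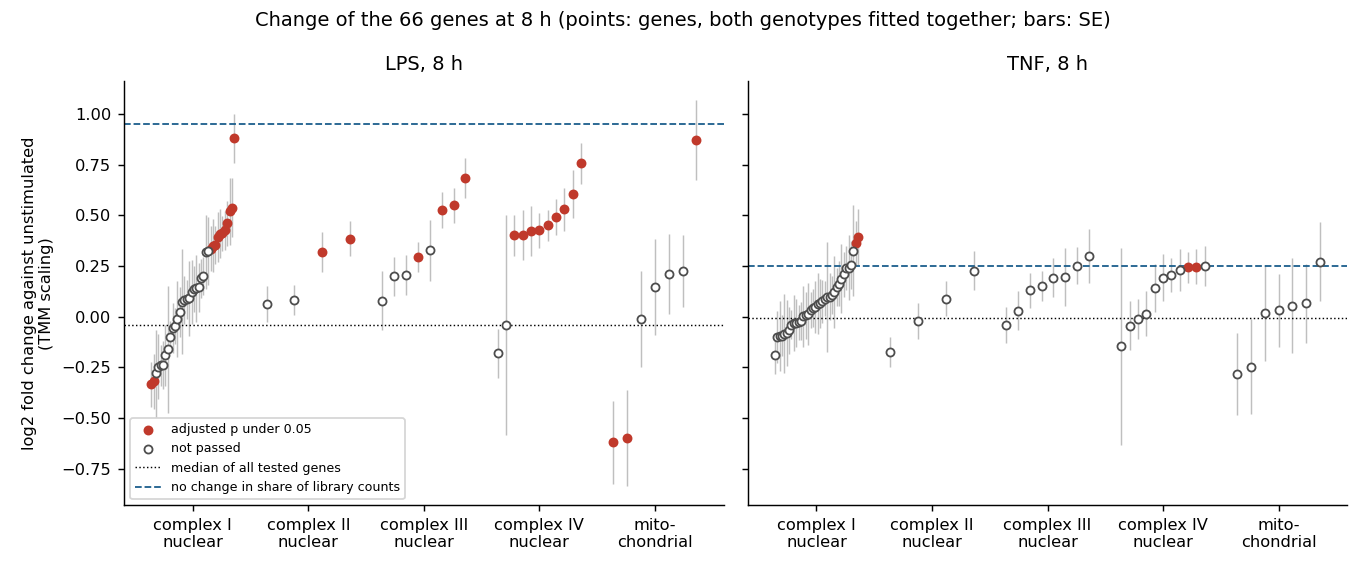
Log2 fold change against unstimulated cells (vertical axis, TMM scaling, bars are SE) of the 66 genes at 8 h of LPS (left) and TNF (right), ordered by value within each complex. Red points passed an adjusted p of 0.05, the dotted line is the median of all tested genes, and the dashed line marks the change at which a gene's share of library counts is about constant. After LPS 26 nuclear genes pass upward, all below the dashed line, and with library totals 0 pass upward and 56 downward.

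Promoters of the members with the largest rises at 8 h of LPS in complexes I, III and IV are shown with that of AA467197, a paralogue described further on, as the start sites of the transcripts described below. The RefSeq sequences (GRCm38.p6) span 300 bases around the start site, and 49 of the 59 nuclear members had an entry. Capitals mark a match, on either strand, to the letters of NRF1 (GCGCATGCG), ETS (CCGGAAGT), YY1 (AAGATGGCG), CRE (TGACGTCA) or NF-kB (GGGACTTTC) sites. In Cox6a1 the letters of NRF1 match on both strands and overlap, and no other matches shown do.
Ndufs4 (chr13:114388045-114388344, minus strand): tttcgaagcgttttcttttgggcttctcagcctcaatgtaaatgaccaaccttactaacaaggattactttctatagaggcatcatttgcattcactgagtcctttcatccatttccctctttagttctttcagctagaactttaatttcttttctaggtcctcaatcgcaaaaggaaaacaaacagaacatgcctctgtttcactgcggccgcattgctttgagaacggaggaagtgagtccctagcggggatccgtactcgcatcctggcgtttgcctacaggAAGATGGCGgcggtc
Uqcrh (chr4:116075021-116075320, minus strand): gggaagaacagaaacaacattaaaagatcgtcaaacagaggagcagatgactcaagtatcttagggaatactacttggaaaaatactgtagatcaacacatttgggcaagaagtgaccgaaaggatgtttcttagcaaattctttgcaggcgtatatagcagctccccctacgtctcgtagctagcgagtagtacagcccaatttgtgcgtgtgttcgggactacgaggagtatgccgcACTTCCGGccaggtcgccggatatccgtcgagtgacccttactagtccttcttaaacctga
Cox5a (chr9:57520982-57521281, plus strand): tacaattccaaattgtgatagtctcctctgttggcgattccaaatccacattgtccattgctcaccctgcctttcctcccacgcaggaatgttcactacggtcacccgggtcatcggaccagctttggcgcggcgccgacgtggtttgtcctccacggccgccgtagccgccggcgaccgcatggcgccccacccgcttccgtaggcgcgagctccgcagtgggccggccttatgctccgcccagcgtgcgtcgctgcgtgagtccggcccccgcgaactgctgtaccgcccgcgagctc
Cox6a1 (chr5:115348909-115349208, minus strand): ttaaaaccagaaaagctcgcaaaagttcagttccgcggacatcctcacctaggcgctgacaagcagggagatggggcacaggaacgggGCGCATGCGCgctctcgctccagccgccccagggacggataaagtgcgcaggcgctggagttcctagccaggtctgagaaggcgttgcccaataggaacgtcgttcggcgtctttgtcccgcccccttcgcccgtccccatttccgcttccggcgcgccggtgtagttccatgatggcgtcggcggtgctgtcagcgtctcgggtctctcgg
AA467197 (chr2:122637637-122637936, plus strand): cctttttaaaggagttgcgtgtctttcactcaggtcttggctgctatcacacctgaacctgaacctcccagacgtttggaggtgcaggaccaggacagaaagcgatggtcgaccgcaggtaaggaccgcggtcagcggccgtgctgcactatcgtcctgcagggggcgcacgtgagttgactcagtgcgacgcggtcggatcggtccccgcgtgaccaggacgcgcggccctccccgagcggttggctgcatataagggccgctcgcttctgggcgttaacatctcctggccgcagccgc

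Ndufs4 held the YY1 letters, Uqcrh the ETS letters and Cox6a1 the NRF1 letters, whereas Cox5a and AA467197 held none of the 5 motifs in these windows. Over the 49 nuclear members with an entry, the NRF1 letters were in 5 (10.2%), the ETS letters in 4 (8.16%), the YY1 letters in 5 (10.2%), the CRE letters in 4 (8.16%) and the NF-kB letters in 1 (2.04%), Ndufv3. Over 27025 genes with a promoter in the same table, the shares were 1.95%, 4.31%, 1.64%, 2.03% and 0.403%.

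In complex I, which oxidises NADH, 11 nuclear members were higher and 2 lower of 36 at 8 h of LPS. Ndufa4 is among the higher ones, counted here by its name though later assigned to complex IV. That is 36.1% called, against 67.7% of all tested genes, 33.8% higher and 33.9% lower. Ndufs4 (chromosome 13, 114287795 to 114388094, mm10), an accessory subunit of the arm that takes up NADH, had the largest rise of any member at 0.88 ± 0.12 (adjusted p = 2.26e-05). It held 33.4, 28.1, 33.7, 33.0 and 55.2 CPM in WT cells before and at 0.5, 1, 3 and 8 h of LPS, and 30.8, 25.9, 28.2, 36.2 and 62.6 CPM in knock-in cells. After TNF it held 30.5, 32.8, 31.1 and 36.6 CPM in WT and 26.2, 28.2, 29.6 and 30.7 CPM in knock-in cells at the same times. Both libraries at 8 h of LPS lay above the other 16. The count ratio of Ndufs4 to Ndufs1, the core subunit that carries iron-sulfur clusters, was 0.506 in WT and 0.591 in knock-in cells at 8 h of LPS and 0.228 to 0.317 in the other 16 libraries, so this difference within the complex does not rest on a scaling.

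Of the other complex I members, the accessory subunit Ndufa1 rose by 0.54 ± 0.14 (adjusted p = 0.00462) and the core subunit Ndufs3 by 0.52 ± 0.16 (adjusted p = 0.0123). Ndufs3 shares 39.7% of its 50-base windows with other genes' transcripts, including the neighbouring Kbtbd4, and is less certain. The fallers were Ndufv3 at -0.33 ± 0.11 (adjusted p = 0.0156) and Ndufa8 at -0.32 ± 0.13 (adjusted p = 0.0496), both accessory subunits. Neither was called by DESeq2. The core subunit Ndufs1 stood at -0.10 ± 0.08 and did not pass.

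Complex II feeds electrons from succinate and is also an enzyme of the tricarboxylic acid cycle. Its membrane anchor Sdhc rose by 0.38 ± 0.09 (adjusted p = 0.00136) and its iron-sulfur subunit Sdhb by 0.32 ± 0.10 (adjusted p = 0.00979) at 8 h of LPS. The flavoprotein subunit Sdha (0.06 ± 0.09) and the anchor Sdhd (0.08 ± 0.07) did not pass. Sdha held 336 CPM in unstimulated WT and 311 CPM in unstimulated knock-in cells, and 319.7 and 354 CPM at 8 h of LPS, so its libraries before and after LPS overlapped.

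Complex III, the cytochrome bc1 complex, had 4 of 8 nuclear members higher and 0 lower at 8 h, with a median of 0.31. Of all tested genes 33.8% were higher and 33.9% lower. The hinge subunit Uqcrh (chromosome 4, 116066965 to 116075071) rose by 0.68 ± 0.10 (adjusted p = 2.78e-05) and had already risen at 3 h by 0.47 ± 0.10 (adjusted p = 0.00117). Its levels in WT cells were 53.3, 50.9, 55.8, 76.5 and 78.2 CPM before and at 0.5, 1, 3 and 8 h of LPS, and in knock-in cells 51.8, 55.5, 55.2, 69.3 and 91.2 CPM. All 4 libraries at 3 and 8 h of LPS were above the other 14, of which the highest, the knock-in TNF 3 h library, held 64.4 CPM. The core subunit Uqcrc2 rose by 0.55 ± 0.09 (adjusted p = 6.96e-05) and the Rieske iron-sulfur protein Uqcrfs1 by 0.52 ± 0.09 (adjusted p = 0.000143). Uqcrc2 shares 24.8% of its windows with its neighbour Pdzd9. The small subunits Uqcrq (0.20 ± 0.09), Uqcr10 (0.21 ± 0.10) and Uqcr11 (0.08 ± 0.15) did not pass at 8 h.

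Complex IV, cytochrome c oxidase, had 9 of 11 nuclear members higher and 0 lower at 8 h of LPS, with a median of 0.43. The share of all tested genes was 33.8% higher and 33.9% lower. Cox5a (chromosome 9, 57521232 to 57532424), a subunit on the matrix side, rose by 0.76 ± 0.10 (adjusted p = 1.45e-05). In WT cells it held 101, 88.6, 101, 129 and 187 CPM along the LPS times, and in knock-in cells 108, 96.0, 99.0, 125 and 166 CPM. The highest library outside 8 h of LPS was the knock-in TNF 8 h library with 136 CPM. Cox6a1, the ubiquitous isoform of its subunit, rose by 0.61 ± 0.12 (adjusted p = 0.000482), and Cox7b by 0.53 ± 0.11 (adjusted p = 0.000537).

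Among the complex IV isoform pairs, the ubiquitous Cox7a2 rose by 0.49 ± 0.09 (adjusted p = 0.000225), whereas Cox7a2l, which takes part in joining complexes III and IV, stood at -0.18 ± 0.12 and did not pass. The muscle isoform Cox7a1 held 4 to 21 counts per library, too few to read a change. Cox5b rose by 0.40 ± 0.12 and Cox4i1 by 0.45 ± 0.08 (adjusted p = 0.0098 and 0.00012), and Cox6b1, the nuclear member with the highest level per length at 263 CPM per kilobase, by 0.43 ± 0.09 (adjusted p = 0.000581). Cox5b shares 25.9% of its windows with the numbered model Gm11273.

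The calls at 3 h were less stable than those at 8 h. The 11 nuclear members called at 3 h became 4 to 11 when a pair of libraries was left out, 4 without the knock-in TNF 3 h library, and 2 when genes of low count were kept in the test. At 8 h the number of higher calls stayed between 25 and 26 when a pair was left out.

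The 7 mitochondrial genes had calls in both directions at 8 h of LPS. mt-Co1 (position 5328 to 6872 of the mitochondrial genome), the catalytic core of complex IV, rose by 0.87 ± 0.20 relative to the median gene (adjusted p = 0.00165). The complex I genes mt-Nd1 (2751 to 3707) and mt-Nd2 (3914 to 4951) fell by 0.62 ± 0.20 and 0.60 ± 0.24 (adjusted p = 0.0172 and 0.0405). The complex I genes mt-Nd4 (0.15 ± 0.24), mt-Nd5 (0.23 ± 0.18) and mt-Nd6 (0.21 ± 0.20) and the complex III gene mt-Cytb (-0.01 ± 0.24) did not pass. With library totals mt-Co1 stood at -0.08 and was not lower beyond its error, and the other 6 were called lower.

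mt-Co1 held 1534, 1514, 1743, 1737 and 2744 CPM in WT cells before and at 0.5, 1, 3 and 8 h of LPS, and 1516, 1554, 2143, 1725 and 2841 CPM in knock-in cells. After TNF it held 1636, 1634, 1681 and 1602 CPM in WT and 1744, 1936, 1015 and 2089 CPM in knock-in cells at the same times. Both libraries at 8 h of LPS stood above the other 16. mt-Nd1 held 1199, 976, 1239, 1138 and 723 CPM in WT cells and 1046, 891, 1397, 938 and 734 CPM in knock-in cells along the LPS times. Its lowest library was the knock-in TNF 3 h library with 671 CPM, so the LPS libraries at 8 h overlap the rest for this gene. Without that library the changes at 8 h of LPS were 0.83 for mt-Co1, -0.66 for mt-Nd1 and -0.64 for mt-Nd2 (adjusted p = 1.98e-05, 0.00109 and 0.00144 by edgeR's test).

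Ratios between mitochondrial genes within a library show the same split without any scaling. The count ratio of mt-Co1 to mt-Nd1 was 3.79 in WT and 3.87 in knock-in cells at 8 h of LPS, 2.01 in both genotypes at 8 h of TNF, and 1.28 to 1.74 in unstimulated cells and at 0.5 and 1 h. mt-Co1 over mt-Nd2 was 8.12 and 8.81 at 8 h of LPS against 2.84 to 4.51 in the other 16 libraries, and mt-Co1 over mt-Cytb 3.44 and 3.28 against 1.67 to 2.27. The ratio of mt-Nd1 to mt-Nd2, 2 neighbouring genes, stayed between 2.03 and 2.40 in all 18 libraries. mt-Nd5 over mt-Nd6 stayed between 6.30 and 7.45; these lie on opposite strands side by side, and the strand setting of the counting is not given in the sources used here. The knock-in TNF 3 h library, where each of the 7 genes lay below its unstimulated level, had an mt-Co1 to mt-Nd1 ratio of 1.51.

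**Figure D3:**
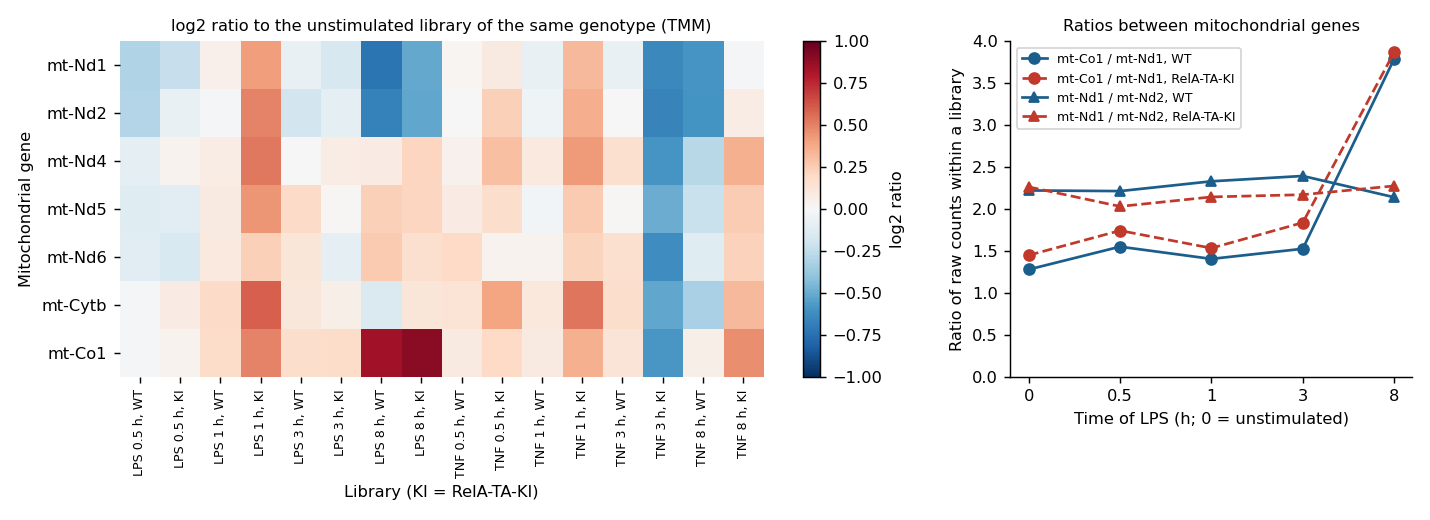
Left, log2 ratio (colour, TMM scaling) of each mitochondrial gene to the unstimulated library of the same genotype, for 16 stimulated libraries. Right, ratios of raw counts within a library against time of LPS in h, WT blue and RelA-TA-KI red. The mt-Co1 to mt-Nd1 ratio reaches 3.79 and 3.87 at 8 h while mt-Nd1 to mt-Nd2 stays between 2.03 and 2.40, and the column of the knock-in TNF 3 h library is low for all 7 genes.

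The mitochondrial ribosomal RNAs, which are not members, also rose at 8 h of LPS, and by more than mt-Co1. The 3 tested genes whose log2 CPM was most like that of mt-Co1 over the 18 libraries were mt-Rnr1 (Pearson's r = 0.903), mt-Rnr2 (0.889) and the cyclin gene Ccnk (0.860), as a description of libraries that share their scaling. mt-Rnr2 rose by 1.60 ± 0.15 and mt-Rnr1 by 1.51 ± 0.15 at 8 h of LPS (adjusted p = 4.52e-07 and 7.5e-07), and by 0.64 and 0.55 with library totals. With library totals mt-Co1 stood at -0.08. The ratio of mt-Rnr2 to mt-Nd1 was 1.24 and 1.30 at 8 h of LPS and 0.244 to 0.489 in the other 16 libraries. The ratio of mt-Co1 to mt-Rnr2 fell from 5.24 in unstimulated WT and 4.75 in unstimulated knock-in cells to 3.05 and 2.98 at 8 h of LPS. Libraries were made from poly(A) RNA, so counts of ribosomal RNA and of mitochondrial genes also depend on how many of their molecules carry a tail.

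Ndufa4, first counted to complex I and later assigned to complex IV, has a paralogue, AA467197, whose human counterpart takes the place of NDUFA4 in complex IV during inflammation. Ndufa4 (chromosome 6, 11900373 to 11907446) rose by 0.35 ± 0.09 at 8 h of LPS (adjusted p = 0.00429). It held 81.4, 78.6, 95.9, 91.4 and 107 CPM in WT and 77.1, 78.4, 81.0, 89.7 and 96.3 CPM in knock-in cells along the LPS times. With library totals its value was -0.60.

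AA467197 was near absent before stimulation, with 1 count in WT and 3 in knock-in cells. It had 4, 6, 118 and 351 counts in WT cells at 0.5, 1, 3 and 8 h of LPS and 6, 1, 173 and 774 counts in knock-in cells. In CPM the last values were 113 and 229. Summed over both genotypes it was 593-fold above unstimulated cells at 8 h of LPS (95% exact counting interval 231 to 2180) and 110-fold at 3 h (42.4 to 405), intervals that cover counting error only. The fitted change was 8.99 ± 0.36 at 8 h of LPS (adjusted p = 1.47e-10), and 8.04 with library totals. TNF at 8 h gave 17 and 30 counts, 15.1-fold above unstimulated cells (5.54 to 57.9).

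The count ratio of AA467197 to Ndufa4 was 1.06 in WT and 2.37 in knock-in cells at 8 h of LPS, 0.275 and 0.441 at 3 h, and 0.0357 and 0.0664 at 8 h of TNF. Over the 9 conditions AA467197 was higher in the knock-in by 0.78 ± 0.17 (adjusted p = 0.00607), which became 0.58 with an adjusted p of 0.109 without the pair at 8 h of LPS and 0.65 with an adjusted p of 0.058 by DESeq2. The 3 tested genes most like Ndufa4 over the 18 libraries were Mefv (r = 0.910), Zfp263 (0.892) and Npy (0.869).

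**Figure D4:**
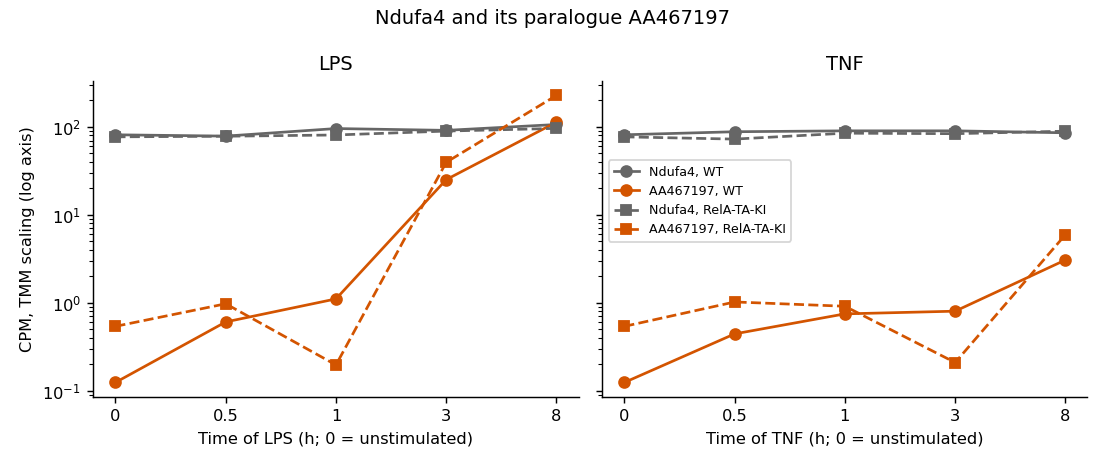
CPM (TMM scaling, log axis) of Ndufa4 (grey) and AA467197 (orange) against time of LPS (left) or TNF (right) in h, with circles for WT and squares for RelA-TA-KI, 1 library per point. AA467197 reaches 113 and 229 CPM at 8 h of LPS, level with or above Ndufa4 at 107 and 96.3 CPM, and 3.06 and 5.94 CPM at 8 h of TNF.

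Few respiratory chain genes were called after TNF. At 8 h 4 of 59 nuclear members were higher and 0 lower (0 and 9 with library totals), where 31.9% of all tested genes were called, 17.1% higher and 14.8% lower. These were the complex I subunits Ndufa1 (0.39 ± 0.14) and Ndufa2 (0.36 ± 0.11) and the complex IV subunits Cox7a2 (0.25 ± 0.09) and Cox4i1 (0.24 ± 0.07), with adjusted p-values of 0.0457, 0.0196, 0.0447 and 0.0237 by edgeR's test. Each was higher in both genotypes relative to the median gene, and with library totals Cox4i1 stood at -0.01 and Cox7a2 at 0.00. The number of calls was 2 by DESeq2, 5 by limma-voom, 2 to 6 when a pair was left out and 2 without the knock-in TNF 3 h library. The F test over all 4 TNF times called 0 members by edgeR (4 nuclear members with an unadjusted p under 0.05) and 1 by DESeq2, against 30.4% of all genes.

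The mitochondrial genes had 0 calls at each TNF time by edgeR, DESeq2 and limma-voom, and 0 at an unadjusted p under 0.05. The nuclear genes had 0 calls at 0.5, 1 and 3 h by the same tools, with 0, 2 and 2 under an unadjusted p of 0.05, where 0.38%, 1.07% (0.902% higher) and 13.5% (7.6% higher and 5.86% lower) of all genes were called. At 8 h of TNF the mitochondrial genes ran from -0.28 for mt-Nd1 to 0.27 for mt-Co1, and the 2 genotypes differed. The median mitochondrial change against the unstimulated library was -0.28 in WT and 0.25 in knock-in cells, while the nuclear median was 0.07 and 0.13. At 3 h of TNF the same median was 0.13 in WT and -0.59 in the knock-in library that stood apart.

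Compared directly at 8 h, without the shared unstimulated libraries, LPS left 18 of 59 nuclear members higher and 1 lower than TNF, or 32.2% called. Of all tested genes 58.4% were called, 30% higher and 28.4% lower. The share of higher calls was thus close to that of all genes and does not set the chain apart. It was 13 to 14 members when a pair of libraries was left out. The difference was 0.81 ± 0.12 for Ndufs4, 0.60 ± 0.17 for Ndufs3, 0.56 ± 0.09 for Uqcrfs1, 0.51 ± 0.10 for Cox5a and 0.47 ± 0.13 for Cox8a, a small subunit of complex IV (adjusted p = 8.22e-05, 0.00778, 0.000128, 0.000704 and 0.00595). By complex, 5 of 36 members were higher in complex I, 2 of 4 in complex II, 3 of 8 in complex III and 8 of 11 in complex IV. Sdhc and Sdhd were the complex II members higher, by 0.29 ± 0.09 and 0.26 ± 0.07. The lower member was Ndufs8, a core subunit of complex I, at -0.40 ± 0.12 (adjusted p = 0.0117). mt-Co1 was higher after LPS by 0.60 ± 0.20 (adjusted p = 0.0191).

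With library totals these higher calls became 0, and 52 nuclear members were lower after LPS than after TNF, with a median shift of all genes of -0.70. Keeping genes of low count in the test left 9 nuclear members higher and no call for mt-Co1. Without the knock-in TNF 3 h library 3 mitochondrial genes were called in this comparison in place of 1. At 3 h 3 nuclear members were higher after LPS, against 16.9% of all genes, namely Uqcrb (0.52 ± 0.15), Ndufs3 (0.46 ± 0.16) and Uqcrfs1 (0.28 ± 0.09). This count became 0 without the knock-in TNF 3 h library, and with library totals 0 were higher and 33 lower. At 0.5 and 1 h 0 members were called by edgeR, DESeq2 and limma-voom, with 2 and 1 nuclear members under an unadjusted p of 0.05, against 0.0442% and 1.2% of all genes. Averaged over the 4 times, 8 nuclear members were higher after LPS and 0 lower (0 and 50 with library totals), where 48.9% of all genes were called, 23.7% higher and 25.2% lower, led by Uqcrfs1 at 0.24 ± 0.04 (adjusted p = 0.000585).

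Few members were called for the genotype. Over the 9 matched pairs 1 nuclear member was called higher and 0 mitochondrial ones, or 0 higher and 8 lower nuclear members with library totals, where 19.7% of all tested genes were called, 10.3% higher and 9.46% lower. The called member was Ndufv3, higher in the knock-in by 0.15 ± 0.05 (adjusted p = 0.0491, higher in 8 of 9 pairs). It held 49.0 CPM in unstimulated WT and 53.6 CPM in knock-in cells, and 34.2 and 47.2 CPM at 8 h of LPS. The call was lost by DESeq2 (adjusted p = 0.083) and limma-voom (adjusted p = 0.0507), and without the unstimulated pair, any LPS pair, or the TNF pair at 0.5 or 8 h (adjusted p = 0.057 to 0.0971). Those tools each called 1 other member, Sdhc, at 0.13 and 0.12 (adjusted p = 0.0409 and 0.0435), which missed the threshold by edgeR (adjusted p = 0.0507). Other members ran from -0.19 for Ndufb2 to 0.46 for the sparse Cox7a1, and the mitochondrial genes from -0.08 for mt-Nd6 to 0.04 for mt-Co1. Without the knock-in TNF 3 h library the mitochondrial genes ran from 0.01 to 0.14.

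Within stimuli, 0 members were called for the genotype over the LPS times or over the TNF times by edgeR, DESeq2 and limma-voom, with 7 and 0 nuclear members under an unadjusted p of 0.05, where 9.99% (5.47% higher and 4.52% lower) and 5.32% (2.41% higher and 2.91% lower) of all genes were called. For the difference of the genotype effect between LPS and TNF 0 of 11308 genes were called by edgeR (578 with an unadjusted p under 0.05), 4 by DESeq2 and 0 by limma-voom. For the genotype effect at 3 and 8 h minus that at 0.5 and 1 h, 0 members were called by all 3 tools, against 0.398% of all genes, and 0 members had an unadjusted p under 0.05. The median of the 7 mitochondrial genes was -0.25 in that difference, with all 7 negative, against 0.035 for nuclear members. Without the knock-in TNF 3 h library the mitochondrial median was -0.01, with a range of -0.09 to 0.02, and the nuclear median 0.07.

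Pair by pair, the mitochondrial genes differed between genotypes by more in some conditions than the nuclear genes did, a description without a test. Their median log2 ratio of knock-in over WT was -0.15 before stimulation, with 0 of 7 genes higher in the knock-in. After LPS it was -0.05, 0.26, -0.21 and -0.05 at 0.5, 1, 3 and 8 h, and after TNF 0.01, 0.18, -0.79 and 0.38. All 7 genes were higher in the knock-in at 1 h of both stimuli and at 8 h of TNF, and 0 of 7 at 3 h of both stimuli. The nuclear median lay between -0.03 and 0.14 in all 9 pairs, and was highest at 8 h of LPS, where 42 of 59 nuclear genes were higher in the knock-in. With 1 library per genotype and condition these ratios have no replicate check.

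The share of Gm42418 also differed between these libraries. It was 1.07% in the knock-in library at 1 h of LPS, where mitochondrial members were highest at 0.790%, against 2.41% in its WT partner, and 3.36% in the knock-in TNF 3 h library against 2.25% in its WT partner. At 8 h of TNF it was 1.54% in the knock-in and 2.47% in the WT library. In unstimulated cells it was 2.31% in the knock-in and 2.50% in WT, with the mitochondrial median also lower in the knock-in. The same held at 0.5 h (1.90% and 2.88%), 3 h (1.71% and 2.32%) and 8 h (1.11% and 1.36%) of LPS. At 0.5 and 1 h of TNF it was 2.02% and 2.25% in knock-in libraries, and 2.93% and 2.73% in WT libraries. Its part in the genotype ratios was not tested.

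**Figure D5:**
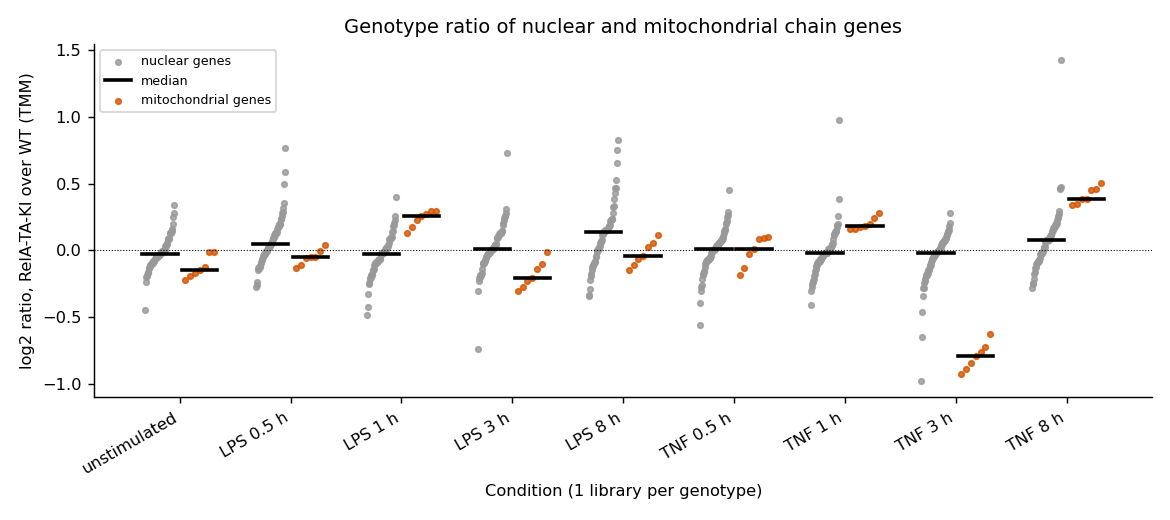
Log2 ratio of RelA-TA-KI over WT (TMM scaling) in each of the 9 conditions, 1 library per genotype, for 59 nuclear genes (grey) and 7 mitochondrial genes (orange), black bars marking medians. The mitochondrial medians run from -0.79 at 3 h of TNF to 0.38 at 8 h of TNF, and the nuclear medians stay between -0.03 and 0.14.

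By level per length over all libraries, the mitochondrial genes stood highest, with mt-Co1 at 1165, mt-Nd1 at 1086 and mt-Cytb at 798 CPM per kilobase. The highest nuclear members of complexes IV, I and III were Cox6b1 (263 CPM per kilobase), Ndufa4 (176 CPM per kilobase, listed here by its name with complex I), and Uqcr10 (79.5 CPM per kilobase). The lowest members per length were Ndufb2 with 1.48, Ndufb4 with 3.61 and Cox7a1 with 5.38 CPM per kilobase, named after their values were seen. The highest of complex II was the anchor Sdhd.

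Lists of genes around the chain, most of them not subunits of complexes I to IV, showed mixed changes at 8 h of LPS relative to the median gene. These are to be read against 33.8% of all tested genes higher and 33.9% lower, and against 17.1% and 14.8% at 8 h of TNF. Of 15 tested nuclear subunits of ATP synthase, complex V, 11 rose and 0 fell, with a median of 0.31, among them Usmg5 (1.49 ± 0.41) and Atp5f1 (0.68 ± 0.08). With library totals 0 of these rose and 14 fell. After TNF 1 rose and 0 fell at that time, or 0 and 3 with library totals. A list of 13 genes for cytochromes and for the synthesis or reduction of coenzyme Q had 2 that rose and 3 that fell. It includes Cyc1, a complex III subunit that the symbol rule does not match, and Etfdh and Dhodh, which pass electrons to coenzyme Q. Cycs, the somatic cytochrome c that carries electrons to complex IV, stood at 1.71 ± 0.27 (0.76 with library totals) and Pdss1 at 1.16 ± 0.21. Usmg5 held 223 counts and Cycs 323 over all 18 libraries, so their values rest on few counts. Dhodh, which passes electrons from pyrimidine synthesis to coenzyme Q, stood at -1.38 ± 0.29 and Coq9 at -1.18 ± 0.18.

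Of 43 assembly factors 11 rose and 15 fell at 8 h of LPS, or 2 and 33 with library totals. Of all tested genes 33.8% rose and 33.9% fell relative to the median gene. The copper chaperones of complex IV went opposite ways, Sco1 by 3.72 ± 0.21 and Sco2 by -4.02 ± 0.77. Sco2 held only 241 counts over all 18 libraries, against 2923 for Sco1. Coa5 rose by 2.17 ± 0.08 and the complex I factor Ndufaf4 stood at -2.71 ± 0.22. Of these factors 3 rose at 8 h of TNF, Coa5 by 1.00 ± 0.08, and 0 fell, or 1 and 4 with library totals.

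Of 25 genes of mitochondrial transcription, RNA handling and DNA maintenance 4 rose and 13 fell, with a median of -0.71, or 2 and 21 with library totals. Polg, Polg2, Twnk, Ssbp1, Top1mt and Mgme1 in this list serve mitochondrial DNA, so the counts and the median are not of RNA handling alone. The shares of all tested genes were 33.8% and 33.9% relative to the median gene. The RNA-degrading Pnpt1 rose by 2.31 ± 0.13 and the RNA-binding Slirp by 1.32 ± 0.14. The DNA helicase Twnk stood at -3.53 ± 0.52 and the transcription factor Tfb2m at -2.68 ± 0.76. Tfb2m held only 203 counts over all 18 libraries. After 8 h of TNF 4 rose, Pnpt1 by 1.01 ± 0.13, and 3 fell, or 2 and 7 with library totals. Among 9 nuclear regulators 2 rose and 4 fell, or 0 and 6 with library totals. Esrra rose by 0.87 ± 0.23 and Gabpb1 by 0.81 ± 0.12, and the coactivator Pprc1 stood at -2.30 ± 0.29 and Nrip1 at -1.18 ± 0.18. With library totals Esrra stood at -0.08 and Gabpb1 at -0.15.

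Of 18 genes of the tricarboxylic acid cycle 4 rose and 4 fell, or 0 and 18 with library totals. Among all tested genes 33.8% rose and 33.9% fell relative to the median gene. Dld rose by 0.57 ± 0.08 and citrate synthase Cs by 0.44 ± 0.08, whereas Fh1, fumarase, stood at -1.17 ± 0.11 and Suclg2 at -1.25 ± 0.27. With library totals Dld stood at -0.39 and Cs at -0.51. A last, mixed list of 5 tested genes held AA467197, the member Cox7a1, the complex I subunit Ndufab1, which the symbol rule does not match, the carrier Ucp2 and Aifm1. Of these 1 rose, AA467197, and 1 fell, Aifm1 (-1.74 ± 0.13), a flavoprotein of the intermembrane space that supports chain assembly.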

How the data were processed

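Gene counts were analysed for 18 libraries. The authors deposited raw counts per gene, 1 column for each library, on mm10. Trimming with cutadapt 1.12, alignment with STAR and counting with featureCounts 1.5.0 are named in the submitters' processing notes. Strand setting, annotation release and handling of reads with several matches are not stated in those notes, which matters for overlapping genes and for mitochondrial genes with nuclear copies. Symbols were found for 45143 of 45706 identifiers.

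The test was edgeR's (version 4.0.16, R 4.3.3), a robust quasi-likelihood fit with TMM factors. Low genes were filtered by filterByExpr (counts of 10, total of 15), and the Benjamini-Hochberg threshold was 0.05. The whole table was fitted on condition plus genotype, or with the genotype effect split by stimulus or time. The standard error is the absolute log2 fold change over the square root of F. As each condition has 1 library per genotype, the spread comes from how genotype pairs differ over conditions. For log2 CPM, 0.5 counts were added. The fit was also run on simulated counts in which only a small set of genes changed. That setting differs from late LPS, where most genes changed, so it does not test the choice of scaling.

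Alternatives were library totals, DESeq2 size factors, no filter, 1 CPM in 9 libraries, DESeq2 1.42.0, limma-voom (limma 3.58.1), leaving out each condition's pair, and, added after the data were seen, leaving out the knock-in TNF 3 h library. Windows of 50 bases were compared with GENCODE vM21 transcripts, and motifs were searched in RefSeq promoters; motif letters were shortened to 9 or fewer after first results were seen. Named genes were all mitochondrial members, per complex the most abundant per length, the 2 largest rises and 2 largest falls at 8 h of LPS, members called for genotype (up to 6) or between stimuli (up to 4 beyond these), isoform pairs, AA467197, and 2 called genes per direction from each pathway list. Other genes named, such as Ndufs1, Ndufa2, Uqcrb, Cox7b, mt-Rnr1 and mt-Rnr2, were chosen after their values were seen. The members and lists were chosen with earlier results of these data known.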

Additional observations from a re-analysis of the deposited data

How the results depend on the processing

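Scaling decided direction. With library totals, nuclear members called higher were 0 at 3 and 8 h of LPS, 0 at 8 h of TNF, 0 for LPS against TNF at 8 h and 0 for genotype, and those called lower were 45 at 3 h and 56 at 8 h of LPS, 9 at 8 h of TNF, 52 for LPS against TNF and 8 for genotype. Mitochondrial members called higher then were 0 at 8 h of LPS and 0 for LPS against TNF, and 6 were lower at 8 h of LPS. At 8 h of LPS all 49 members above 0 turned below 0 with library totals, the 27 called higher among them. These include mt-Nd4 (-0.81), mt-Nd5 (-0.73), mt-Nd6 (-0.74), mt-Co1 (-0.08), Ndufa4 (-0.60), Ndufs4 (-0.08), Ndufa1 (-0.42), Ndufs3 (-0.43), Sdha (-0.90), Sdhb (-0.63), Sdhc (-0.57), Sdhd (-0.87), Uqcr10 (-0.75), Uqcrh (-0.27), Uqcrc2 (-0.41), Uqcr11 (-0.88), Uqcrq (-0.76), Uqcrfs1 (-0.43), Cox4i1 (-0.50), Cox5a (-0.19), Cox5b (-0.55), Cox6a1 (-0.35), Cox6b1 (-0.53), Cox6c (-0.56), Cox7a2 (-0.47) and Cox8a (-0.53). At 8 h of TNF Cox4i1 (-0.01) and Cox7a2 (0.00) turned. With library totals the median of all tested genes moved too, to -0.55 at 3 h and -0.99 at 8 h of LPS and -0.25 at 8 h of TNF. Nuclear medians were then -0.42, -0.75 and -0.16. Why the composition of the libraries changed was not tested.

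Without a filter, 21177 genes were tested, and nuclear members called higher were 2 at 3 h of LPS, 1 at 8 h of TNF, 9 for LPS against TNF and 0 for genotype. Mitochondrial calls were then 1 lower at 8 h of LPS and 0 higher for LPS against TNF. By DESeq2 5 nuclear members were higher at 3 h of LPS, 0 lower at 8 h of LPS and 2 higher at 8 h of TNF. With DESeq2 size factors 1 nuclear and 1 mitochondrial member were lower at 8 h of LPS and 2 were higher for genotype; with limma-voom 1 and 1 were lower. With 1 CPM in 9 libraries 1 nuclear member was lower at 8 h of LPS and 0 were higher for genotype. The cause of these moves was not tested.

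Leaving out each pair gave 4 to 11 nuclear members higher at 3 h of LPS, 25 to 26 higher and 1 to 4 lower at 8 h, 2 to 6 higher at 8 h of TNF, 13 to 14 higher and 1 to 2 lower for LPS against TNF, and 0 to 2 higher and 0 to 1 lower for genotype. Mitochondrial calls stayed at 1 higher and 2 lower at 8 h of LPS. Without the knock-in TNF 3 h library, chosen after seeing the data, 4 nuclear members were higher at 3 h of LPS, 2 at 8 h of TNF and 2 for genotype, and 2 were lower for LPS against TNF. Nuclear minus mitochondrial change at 8 h of LPS moved from 0.11 to 0.24 without mt-Co1 and mt-Nd4. No paired analysis was possible because each group has 1 library, as far as pairing by replicate number goes; pairing by condition is part of the genotype fit.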
